A study of Mus musculus with 8 samples.

Results

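Of the 100 genes on the panel, 6 encode costimulatory ligands and receptors of lymphocyte activation, namely Cd80, Cd86, Cd40, Cd28, Icos and Tnfrsf9. They were chosen by name, and all molecules carrying these target names were taken from every section, 148134 of 33863528 gene molecules in all. The sections are brain hemispheres of mice implanted with GL261 cells, a mouse glioma line, and imaged by single-molecule fluorescence in situ hybridization, which places each detected transcript as a point. All mice received 4 intracranial treatments and were killed on day 21. The treatments were CpG-STAT3ASO with anti-PD1 (the combination), CpG-STAT3ASO alone, anti-PD1 alone or PBS, with 2 sections each. CpG-STAT3ASO joins a CpG oligonucleotide, a ligand of the innate DNA sensor TLR9, to an antisense oligonucleotide against Stat3, and anti-PD1 is an antibody against the T cell checkpoint receptor PD-1. The labels give neither mouse strain nor age, nor the level of the section. They do not say whether the 2 sections of a treatment came from separate animals, so p-values measure only the spread between these sections, which may be technical.

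A T cell needs a costimulatory signal beside its antigen to become fully activated. CD80 and CD86, carried by dendritic cells, macrophages and other antigen-presenting cells, give that signal through CD28 and are competed for by the inhibitory receptor CTLA-4. CD40 on antigen-presenting cells receives help from activated T cells, and ICOS and TNFRSF9 (4-1BB) are receptors that appear or increase on T cells after activation, regulatory T cells included.

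The genes of Cd80 and Cd86 both lie on mouse chromosome 16 (36568956 to 36666158 for Cd86 and 38457430 to 38495958 for Cd80, GRCm38.p6), and those of Cd28 and Icos both lie on chromosome 1 (60746388 to 60773359 and 60960773 to 61000322). Cd40 lies on chromosome 2 (165055614 to 165071654) and Tnfrsf9 on chromosome 4 (150920155 to 150946104). Promoter windows of RefSeq, from 250 bases before to 50 bases after a transcription start, were matched by symbol for 2 of the 6 genes, Cd80 and Tnfrsf9, with 3 entries. All entries found are shown, and the other genes had none. STAT and NF-kB motifs were searched because CpG-STAT3ASO is directed at TLR9 and STAT3, and TLR9 signals through NF-kB. Capitals mark matches to the STAT motif TTCNNNGAA or to the NF-kB consensus, searched on both strands.
Cd80, chr16:38458683-38458982, plus strand: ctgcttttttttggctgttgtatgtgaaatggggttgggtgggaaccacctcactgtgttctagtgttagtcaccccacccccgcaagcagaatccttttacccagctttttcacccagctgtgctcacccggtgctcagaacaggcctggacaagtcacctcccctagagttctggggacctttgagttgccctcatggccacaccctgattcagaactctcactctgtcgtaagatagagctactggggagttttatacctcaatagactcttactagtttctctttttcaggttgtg
Tnfrsf9, upstream start, chr4:150919905-150920204, plus strand: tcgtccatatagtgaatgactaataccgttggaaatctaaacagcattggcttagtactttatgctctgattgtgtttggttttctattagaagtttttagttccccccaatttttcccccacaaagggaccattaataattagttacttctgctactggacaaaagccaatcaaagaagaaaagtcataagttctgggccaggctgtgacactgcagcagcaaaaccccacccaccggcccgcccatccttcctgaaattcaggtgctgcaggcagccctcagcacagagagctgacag
Tnfrsf9, downstream start, chr4:150927749-150928048, plus strand: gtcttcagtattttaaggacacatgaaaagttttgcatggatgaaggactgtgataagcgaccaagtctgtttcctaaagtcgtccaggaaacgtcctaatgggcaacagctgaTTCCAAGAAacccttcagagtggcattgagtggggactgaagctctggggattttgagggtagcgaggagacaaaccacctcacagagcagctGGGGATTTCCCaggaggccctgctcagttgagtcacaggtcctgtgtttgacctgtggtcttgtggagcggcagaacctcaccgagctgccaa

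The downstream Tnfrsf9 window held 1 STAT match, beginning 136 bases before the start, and 2 overlapping NF-kB matches beginning 43 and 42 bases before it. The Cd80 window and the upstream Tnfrsf9 window held neither. The Cd80 window lies inside the span given for that gene, which begins at 38457430, so the bases before that position were not searched. Of 32851 promoter windows of the same length, 8.3% held the STAT motif and 8.46% the NF-kB consensus. A match is therefore only a description of these letters, and binding was not tested.

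A section held 1669939 to 6995401 molecules, and 0.106 to 0.306% of them carried one of 28 codes named FP, read here as false-positive codes. Every one of the 6 genes exceeded the 90th percentile of these codes (82.6 to 519.3 molecules a section) in 8 of 8 sections. The most frequent FP code reached 3316 to 5348 molecules a section, more than Cd28 (366 to 2446 molecules) and Cd80 (1060 to 2589 molecules) reached in any section. Tnfrsf9 stayed below that code in every section with CpG-STAT3ASO (637 to 2112 molecules). Icos stayed below it in most sections, and Cd86 and Cd40 in several. In square bins of 360 pixels with at least 20 molecules, the share that was dense in proliferating tumour (100 or more molecules of Mki67 plus Birc5) was 0.983 to 3.24% with CpG-STAT3ASO and 32.2 to 46.2% without it. Levels over a whole section therefore compare sections of different make-up. Fewer cells of a type and less RNA per cell cannot be told apart in them. Levels are in CPM, molecules of a gene per 1000000 gene molecules of that section or region. Each comparison was fitted by limma on log2(CPM + 1) over all genes tested, and a gene is called when its Benjamini-Hochberg adjusted p is under 0.05.

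The ligands Cd80 and Cd86 made up a larger share of all molecules in every section given CpG-STAT3ASO than in any section without it, while Tnfrsf9 made up a smaller one. Cd40, Cd28 and Icos were not called. Of the 100 genes tested, 43% were called for CpG-STAT3ASO averaged over anti-PD1, 35% higher and 8% lower. With median-of-ratios scaling 18 genes were higher and 16 lower, and per tissue bin 2 were higher and 29 lower. In CPM the 6 costimulatory genes gave 2 called higher and 1 called lower, with a median log2 difference of 0.80, against 0.63 over all 100 genes.

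Cd80 stood at 1205 and 660 CPM with the combination and at 953 and 917 CPM with CpG-STAT3ASO, against 251 and 197 CPM with anti-PD1 and 255 and 152 CPM with PBS. Every section with CpG-STAT3ASO lay above every section without it. How many genes of the panel separated in this way, here or for the genes below, was not counted, and 43% of genes were called. The mean was 934 ± 223 CPM with CpG-STAT3ASO and 214 ± 49.1 CPM without it (SD, n = 4 each), a log2 difference of 2.12 ± 0.47 (SE, limma adjusted p = 0.00189), or 4.35-fold on the log2(CPM + 1) scale.

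Cd86, the second ligand of CD28, stood at 2303 and 1683 CPM with the combination and at 2186 and 1784 CPM with CpG-STAT3ASO, against 799 and 543 CPM with anti-PD1 and 702 and 555 CPM with PBS. These sections did not overlap either. The mean was 1989 ± 302 CPM with and 649 ± 123 CPM without CpG-STAT3ASO (SD, n = 4 each), a log2 difference of 1.62 ± 0.38 (SE, limma adjusted p = 0.00284), or 3.07-fold.

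Cd40, the receptor through which T cells license antigen-presenting cells, stood at 980 and 1050 CPM with the combination, 830 and 1349 CPM with CpG-STAT3ASO, 1023 and 696 CPM with anti-PD1 and 1035 and 926 CPM with PBS. All 4 treatments overlapped, and the log2 difference with CpG-STAT3ASO was 0.19 ± 0.40 (SE, limma adjusted p = 0.739).

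**Figure D1:**
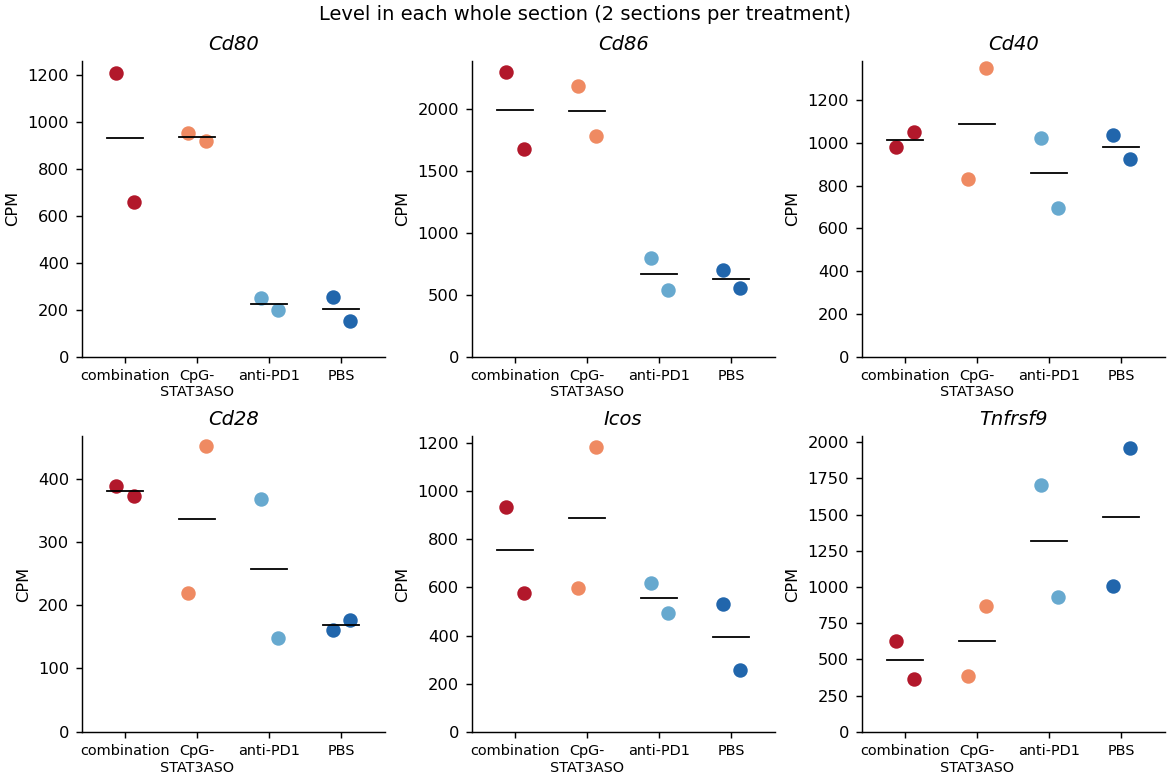
CPM of the 6 genes in each whole section (points, 2 per treatment; bars are the mean of 2). Cd80 and Cd86 lie higher in all 4 sections with CpG-STAT3ASO, Tnfrsf9 lies lower in them, and the other 3 genes overlap.

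Among the receptors of T cells, Cd28 stood at 389 and 372 CPM with the combination and 220 and 452 CPM with CpG-STAT3ASO, against 368 and 147 CPM with anti-PD1 and 161 and 176 CPM with PBS. The first anti-PD1 section lay among the sections with CpG-STAT3ASO, apart from the other sections without it. The log2 difference was 0.80 ± 0.52 (SE, limma adjusted p = 0.245).

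Icos stood at 935 and 578 CPM with the combination and 597 and 1183 CPM with CpG-STAT3ASO, against 620 and 495 CPM with anti-PD1 and 530 and 256 CPM with PBS. The groups overlapped, with a log2 difference of 0.80 ± 0.47 (SE, limma adjusted p = 0.189).

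Tnfrsf9 stood at 629 and 366 CPM with the combination and 383 and 870 CPM with CpG-STAT3ASO, against 1704 and 934 CPM with anti-PD1 and 1010 and 1962 CPM with PBS. The second CpG-STAT3ASO section came close to the second anti-PD1 section, and the groups did not overlap. The mean was 562 ± 238 CPM with and 1402 ± 509 CPM without CpG-STAT3ASO (SD, n = 4 each), and the log2 difference was -1.34 ± 0.46 (SE, limma adjusted p = 0.0257). This call was lost without the second PBS section (adjusted p = 0.143), the first anti-PD1 section (0.11), the first CpG-STAT3ASO section (0.123) or the second combination section (0.0536).

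The calls of the ligands depended on the scale. Counted per tissue bin, Cd80 averaged 0.922 ± 0.174 molecules with CpG-STAT3ASO and 0.563 ± 0.126 without it, and Cd86 averaged 2.01 ± 0.52 and 1.74 ± 0.472 (SD, n = 4 each). Neither ligand was called on that scale (limma adjusted p = 0.187 and 0.654), and Cd86 was not called with median-of-ratios scaling (0.0542). Cd40, Cd28 and Icos turned to lower values per bin (log2 differences of -1.22, -0.61 and -0.61), and none of them was called. Tnfrsf9 averaged 0.577 ± 0.288 molecules a bin with CpG-STAT3ASO and 3.97 ± 2.11 without it, and was called lower per bin, with median-of-ratios scaling and in CPM (limma adjusted p = 0.0115, 0.00186 and 0.0257).

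The median log2 difference over all genes moved with the scale. It was 0.63 in CPM, -0.04 with median-of-ratios scaling and -0.77 per bin. Relative to this median, the log2 difference of Cd80 was 1.49, 1.48 and 1.48 on these scales. That of Cd86 was 0.99, 0.98 and 0.98, and that of Tnfrsf9 was -1.97, -1.98 and -1.98. Each scaling multiplies all genes of a section by a common factor. These relative values therefore agree by construction, apart from the pseudocount, and do not test the differences.

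**Figure D2:**
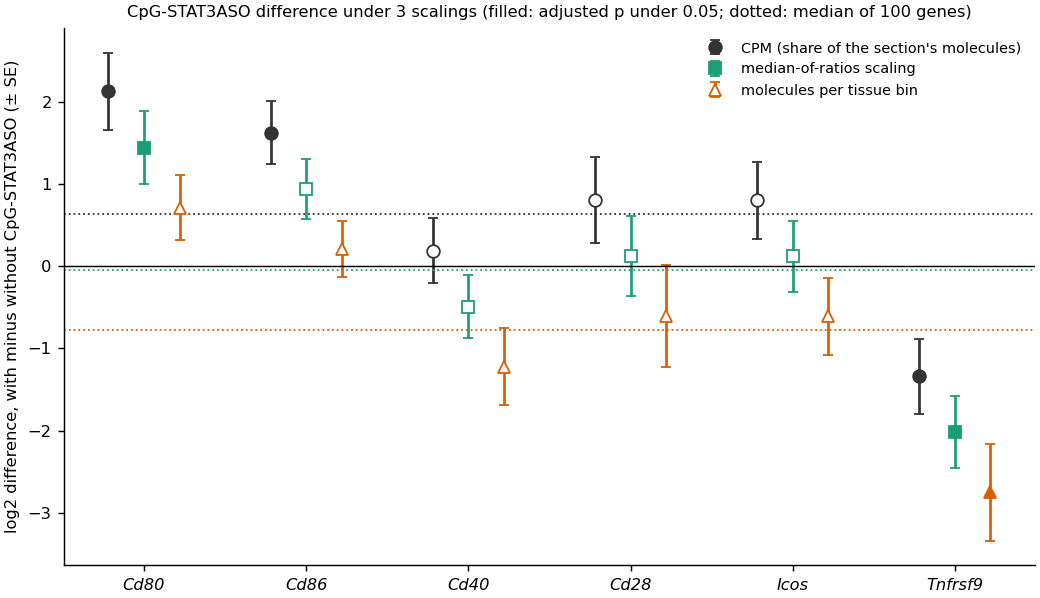
Log2 difference with minus without CpG-STAT3ASO (± SE) of the 6 genes in CPM, with median-of-ratios scaling and in molecules per tissue bin; filled symbols have an adjusted p under 0.05 and dotted lines give the median of 100 genes. Each scaling multiplies all genes of a section by a common factor. By construction the genes therefore keep their order on each scale and all of them move with the median.

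Markers of other cells moved with the ligands, in a panel where 35% of genes were called higher and 8% lower. Of 6 macrophage and monocyte markers 4 were called higher with CpG-STAT3ASO, and their summed level was 20165 to 37526 CPM with CpG-STAT3ASO and 4669 to 9852 CPM without it, and that of 2 microglial markers (1 called higher) was 36715 to 69782 CPM with and 17592 to 27906 CPM without it. Of 4 T cell markers 2 were called higher, with a sum of 13823 to 25556 CPM with and 2245 to 8882 CPM without it. Cd3d and Cd8a held 94 and 1148 of the 31616 molecules of this sum in the first CpG-STAT3ASO section. They held 698 and 18335 of 54228 in the second combination section and 208 and 2140 of 37211 in the first PBS section. The rest was Cd4 and Foxp3, so the sum is not a measure of T cell number. Ptprc, the pan-leukocyte gene, stood at 7224 to 9137 CPM with and 1984 to 4399 CPM without it. The sums of 7 dendritic cell markers (2 called higher, 1 lower) overlapped, at 18254 to 28645 CPM with and 19828 to 30033 CPM without it, as did those of 5 NK and cytotoxic cell markers (0 called), at 853 to 3333 and 884 to 1731 CPM. The B cell marker and the neutrophil marker were not called, at 24.7 to 295 and 7.39 to 23.4 CPM with and 18.1 to 64.6 and 8.01 to 11.6 CPM without it. The sum of 3 proliferation genes was 12827 to 19247 CPM with and 61277 to 120235 CPM without CpG-STAT3ASO. The part of these cells in the costimulatory values was not tested.

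Single treatments were also compared. CpG-STAT3ASO differed from PBS by 2.24 ± 0.67 for Cd80 and by 1.66 ± 0.54 for Cd86 on the log2 scale (SE, limma adjusted p = 0.0223 and 0.0323), with 25% of all genes called, 21% higher. The combination differed from PBS by 2.17 ± 0.67 for Cd80 and 1.66 ± 0.54 for Cd86 (0.0303 and 0.0425, 18% of genes called, 14% higher). It differed from anti-PD1 by 2.0 ± 0.67 and 1.58 ± 0.54 (0.0369 and 0.0415, 28% of genes called, 23% higher). These comparisons share sections, and their calls rest on 2 sections a side. Both ligands lost their call in CpG-STAT3ASO against PBS without the second PBS section or either CpG-STAT3ASO section. They lost it in combination against PBS without either PBS section or the first combination section. In combination against anti-PD1 they lost it without either anti-PD1 section, either CpG-STAT3ASO section or the first combination section. A single costimulatory gene was still called in CpG-STAT3ASO against PBS without the first PBS section and in combination against PBS without either CpG-STAT3ASO section. The same held in combination against anti-PD1 without either PBS section. Which gene it was in these fits is not given here.

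No costimulatory gene was called for anti-PD1 averaged over CpG-STAT3ASO, where 0% of genes were called. The log2 differences of the 6 genes ran from -0.21 for Tnfrsf9 to 0.37 for Cd28, with standard errors of 0.38 to 0.52. None of the 6 reached an unadjusted p under 0.05, as 1 of all 100 genes did, and limma's voom also called 0. Anti-PD1 against PBS (1% of genes called), combination against CpG-STAT3ASO (0%) and the interaction of both agents (0%) also called none of the 6, by limma or voom, with 0 at an unadjusted p under 0.05.

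Within low and intermediate bins no costimulatory gene was called for CpG-STAT3ASO on the CPM scale with the bins and class limits used here. Low-proliferation bins held under 10 molecules of Mki67 plus Birc5 and intermediate bins held 10 to 99, and both genes were left out of the totals. In low bins Cd80 stood at 1038, 493, 755 and 687 CPM in the combination and CpG-STAT3ASO sections, against 367, 372, 440 and 377 CPM in the anti-PD1 and PBS sections. All 4 sections with CpG-STAT3ASO were still the higher ones. The log2 difference was 0.89 ± 0.36 (SE, limma adjusted p = 0.152, 9.38% of 96 genes called). Cd80 was the 1 gene of the 6 with an unadjusted p under 0.05 there. Per bin, Cd80 was called in low bins (1.19, limma adjusted p = 0.0259). Cd86 differed by 0.41 ± 0.32, and its sections overlapped, with 1418 to 2155 CPM with and 1127 to 1801 CPM without CpG-STAT3ASO. Cd28, Icos, Cd40 and Tnfrsf9 differed by 0.56, 0.40, 0.18 and 0.16, with standard errors of 0.33 to 0.42.

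In intermediate bins Cd80 stood at 1741, 770, 1325 and 1238 CPM in the combination and CpG-STAT3ASO sections, against 703, 469, 578 and 410 CPM in the anti-PD1 and PBS sections. The log2 difference was 1.20 ± 0.44 (SE, limma adjusted p = 0.145, 4.3% of 93 genes called). Tnfrsf9 differed by -1.32 ± 0.53 (0.179). These 2 genes had an unadjusted p under 0.05, and Cd86 at 0.77 ± 0.36 and Cd40 at -0.27 ± 0.41 did not. With class limits of 20 and 200, Cd80 (2.0, limma adjusted p = 0.0119) and Cd86 (1.25, 0.0417) were called in intermediate bins, and with bins of 180 pixels Cd80 was (1.39, 0.0487).

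The ratio of Cd80 to Cd86 molecules changed as well, which the total of a section cannot affect. It is compared only between sections, since the detection of each probe set is unknown. There were 0.523 and 0.392 Cd80 molecules per Cd86 molecule with the combination and 0.436 and 0.514 with CpG-STAT3ASO, against 0.314 and 0.362 with anti-PD1 and 0.364 and 0.273 with PBS. The ratio was higher in 4 of 4 sections with CpG-STAT3ASO, by 0.51 on the log2 scale (exact permutation test, two-sided, p = 0.0286, the smallest that 4 against 4 sections allow; 0.0381 adjusted over 4 ratios). Within low and intermediate bins the difference was 0.48 and 0.44 (exact permutation p = 0.0857 and 0.171).

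Cd40 molecules per Cd86 molecule numbered 0.38 to 0.756 with CpG-STAT3ASO and 1.28 to 1.67 without it (log2 difference of -1.43, exact permutation p = 0.0286, adjusted 0.0381). Tnfrsf9 molecules per Cd28 molecule numbered 0.984 to 1.93 with and 4.63 to 11.1 without CpG-STAT3ASO (-2.14, exact permutation p = 0.0286, adjusted 0.0381). The first of these was -0.23 in low and -1.04 in intermediate bins, with exact permutation p of 0.429 and 0.143. The second was -0.40 in low and -1.78 in intermediate bins, with exact permutation p of 0.171 and 0.0286. Icos molecules per Cd28 molecule numbered 1.55 to 2.72 with and 1.45 to 3.36 without it and overlapped (exact permutation p = 1).

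In the 4 sections without CpG-STAT3ASO, dense tumour was set against low-proliferation tissue. Cd80 and Cd86 took a smaller share of the molecules in dense bins, and Tnfrsf9 took a larger one. Of 96 genes tested, 56.2% were called, 29.2% higher and 27.1% lower in dense bins.

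Cd80 stood at 222, 190, 196 and 119 CPM in dense bins of the anti-PD1 and PBS sections, against 367, 372, 440 and 377 CPM in their low bins. It was lower in dense bins in 4 of 4 sections, by 1.13 ± 0.28 on the log2 scale (SE, limma with the section as block, adjusted p = 0.0142). Cd86 stood at 695, 496, 597 and 396 CPM in dense bins, against 1127, 1182, 1271 and 1801 CPM in low bins (log2 difference -1.30 ± 0.31, limma adjusted p = 0.0125). Both calls rest on the second anti-PD1 section, without which the adjusted p was 0.0627 and 0.0598, and that of Cd80 also on the first PBS section (0.0797).

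Tnfrsf9 ran the other way, at 2076, 1154, 1200 and 2231 CPM in dense bins against 326, 299, 335 and 542 CPM in low bins. It was higher in 4 of 4 sections (log2 difference 2.12 ± 0.25, SE, limma adjusted p = 0.000617). Of all Tnfrsf9 molecules in these sections 81.1 to 94.3% lay in dense bins, against 52.5 to 73.7% of Cd80 molecules. Over all genes, 74.4 to 86.6% of molecules lay in dense bins of these sections. Cd40, Cd28 and Icos differed by 0.33 ± 0.25, 0.18 ± 0.43 and -0.34 ± 0.35 and were not called.

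Dense bins also held more molecules of every kind, with a median log2 difference over all genes of 3.05 per bin. Counted per bin, all 6 costimulatory genes were higher in dense bins, Cd80 by 1.72 and Cd86 by 1.55 (limma adjusted p = 0.000883 and 0.00168). On that scale 91 of 96 genes were called. The lower CPM of both ligands in dense bins is a share of that larger total.

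**Figure D3:**
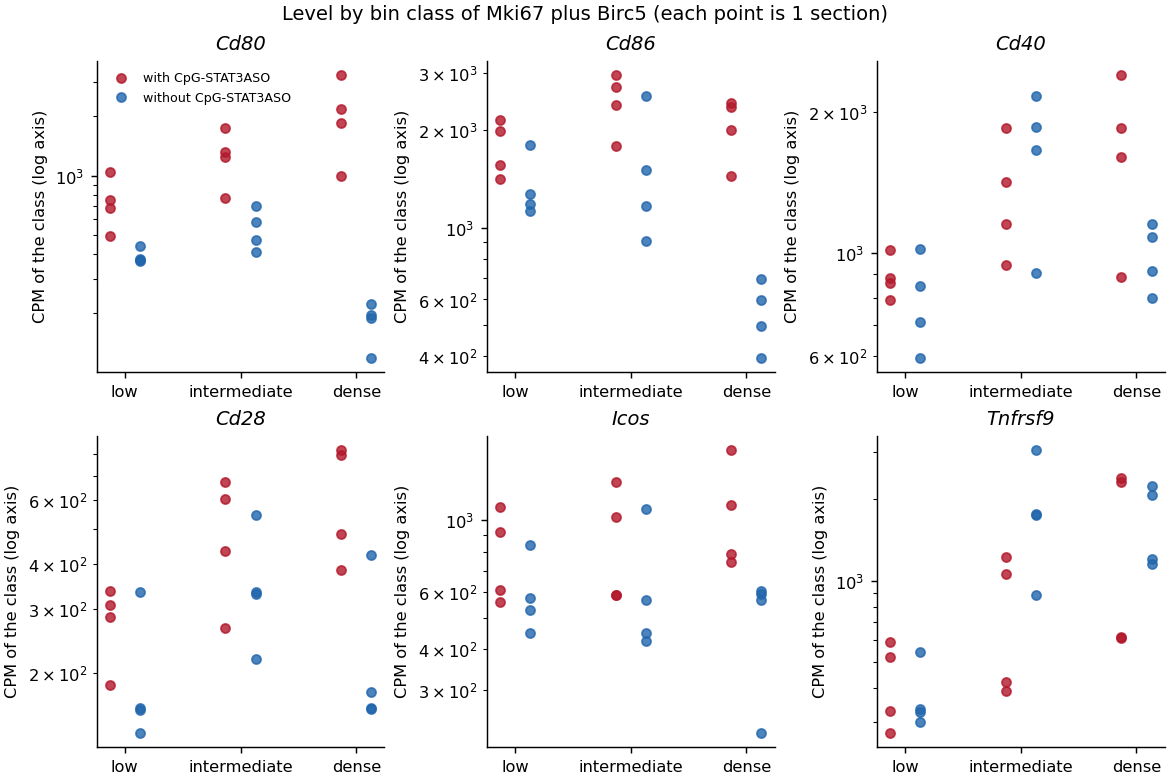
CPM of the 6 genes (log axis) in low, intermediate and dense bins, 1 point per section, with and without CpG-STAT3ASO. Without CpG-STAT3ASO, Cd80 and Cd86 are lowest in dense bins and Tnfrsf9 is lowest in low bins; dense bins with CpG-STAT3ASO number 22 to 78 a section.

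Intermediate bins were compared with low bins in all 8 sections, where 73.7% of 95 genes were called, 57.9% higher and 15.8% lower. Tnfrsf9 was higher by 1.47 ± 0.17 on the log2 scale (SE, limma with the section as block, adjusted p = 6.74e-06), Cd28 by 0.82 ± 0.21 (0.00268), Cd40 by 0.78 ± 0.14 (0.000277) and Cd80 by 0.60 ± 0.15 (0.00248). Cd86 and Icos were not called, at 0.29 ± 0.19 and 0.06 ± 0.15. The 4 calls held with any 1 section left out, but that of Cd80 was lost with class limits of 20 and 200 (0.25, limma adjusted p = 0.222). Cd86 was called with limits of 5 and 50 (0.46, 0.0201). Per bin all 6 genes were called, Cd86 at 0.91 and Icos at 0.68. The share of all genes called per bin is not given here, so this count does not set the 6 genes apart.

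This step differed with CpG-STAT3ASO for Tnfrsf9. Its level in intermediate bins exceeded that in low bins by 1.02, 0.62, 0.24 and 1.05 log2 units in the combination and CpG-STAT3ASO sections, against 2.42, 1.56, 2.39 and 2.48 in the anti-PD1 and PBS sections. The sections did not overlap. The difference was -1.48 ± 0.34 (SE, limma interaction term, adjusted p = 0.0122), where 25.3% of 95 genes were called, 6.32% higher and 18.9% lower. The other 5 genes were not called, but with class limits of 20 and 200 Cd80 was (1.05, limma adjusted p = 0.0379, against 0.32 with the limits used here). The Tnfrsf9 call was lost without the first CpG-STAT3ASO section (adjusted p = 0.0534), with bins of 720 pixels (0.0537) and with class limits of 5 and 50 (0.0983).

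Tnfrsf9 and Cd40 were called higher next to the tumour than far from it. In the 4 sections without CpG-STAT3ASO, the margin (1 to 3 bins outside dense tumour) was set against tissue 10 or more bins outside. There 66.7% of 93 genes were called, 51.6% higher at the margin. Tnfrsf9 stood at 1532, 634, 1467 and 2865 CPM at the margin of the anti-PD1 and PBS sections, against 221, 330, 235 and 379 CPM in distant tissue (log2 difference 2.36 ± 0.42, SE, limma adjusted p = 0.00137). It was higher at the margin in 4 of 4 sections.

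Cd40 stood at 1756, 763, 1398 and 2140 CPM at the margin, against 867, 526, 688 and 994 CPM far from it (0.96 ± 0.32, SE, limma adjusted p = 0.0266). The Cd40 call was lost without the first PBS section (0.092) or the first anti-PD1 section (0.103). Cd28 differed by 0.97 ± 0.49 (0.113), and its second PBS section ran against the others, with 266 CPM at the margin and 373 CPM in distant tissue. Cd28 was called without that section (1.44, limma adjusted p = 0.0179) and per bin (1.55, 0.0273). Cd80, Cd86 and Icos differed by 0.40 ± 0.38, 0.44 ± 0.38 and -0.19 ± 0.37 and were not called.

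**Figure D4:**
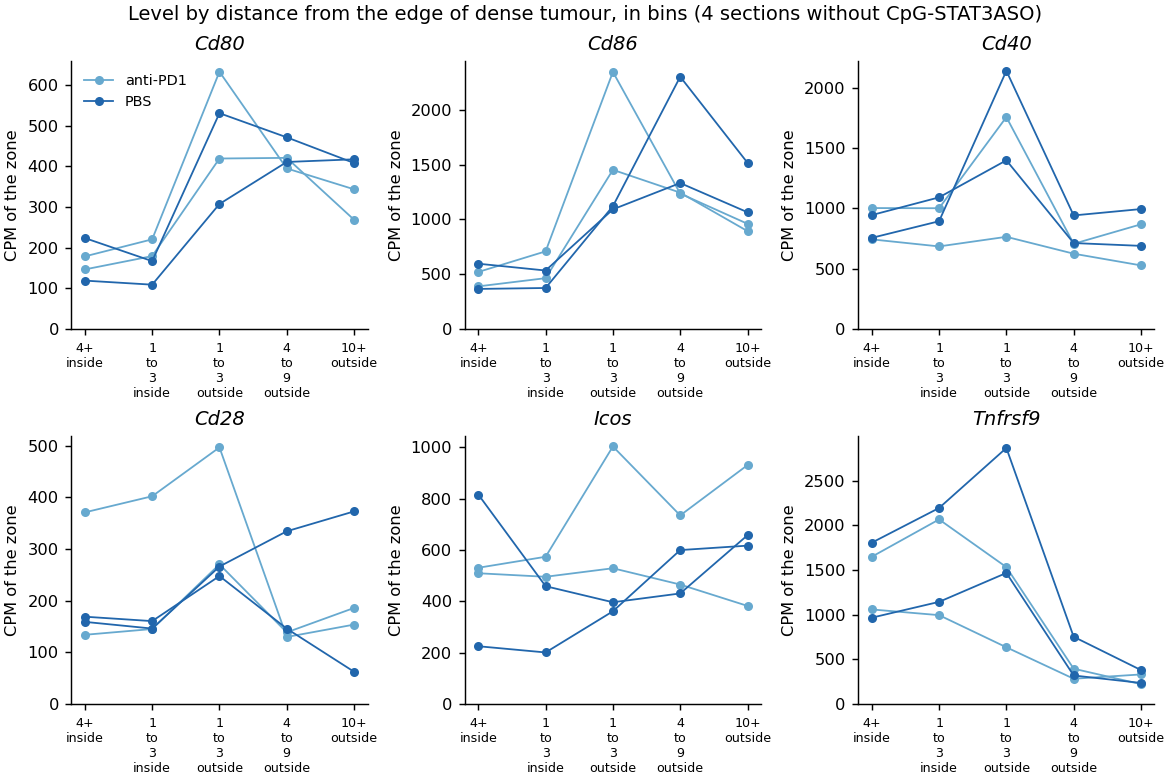
CPM of the 6 genes by distance from the edge of dense tumour, in bins, in the 4 sections without CpG-STAT3ASO (each line is 1 section). Tnfrsf9 is high inside the tumour and at its margin and stands at 221 to 379 CPM at 10 or more bins outside, and Cd80 and Cd86 are higher outside the tumour than inside.

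Cd28 molecules were compared with their surroundings by a log2 density ratio, the density of a target within 100 pixels of a Cd28 molecule over that in a ring of 400 to 600 pixels. Both ligands were denser near Cd28 than in the ring in 8 of 8 sections. The ratio of Cd80 was 1.55 and 1.27 with the combination, 1.27 and 1.18 with CpG-STAT3ASO, 0.84 and 1.09 with anti-PD1 and 1.24 and 1.05 with PBS. The ratio of Cd86 was 0.92 and 0.86, 1.12 and 1.03, 0.46 and 0.55, and 0.65 and 0.52 in the same order of sections. FP codes had 0.04 to 0.45.

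Cd80 was closer to Cd28 than Cd86 was in 8 of 8 sections, by 0.42 ± 0.19 (SD, n = 8 sections; exact sign-flip permutation test, two-sided, p = 0.00781, a comparison chosen after its values were seen). Around Cd28 molecules in low bins Cd80 had the higher ratio in 4 of 8 sections and Cd86 in the other 4, while Cd80 had it in 8 of 8 sections around those in intermediate bins and in 8 of 8 around those in dense bins. Neither ligand stood out from the panel, as Cd80 ranked 25 to 46 and Cd86 34 to 59 of 99 genes by closeness to Cd28. A Cd80 molecule lay within 100 pixels of 20.5 to 36.9% of Cd28 molecules and of 9.35 to 18.5% of FP molecules. A Cd86 molecule lay within that distance of 37.3 to 61.3% of Cd28 and 22.8 to 40.3% of FP molecules. Positions of molecules do not tell which cell holds them. Distances stay in pixels, whose size the labels do not state.

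The median log2 density ratio over genes was 0.50 to 1.22 with CpG-STAT3ASO and 0.43 to 0.64 without it. After subtraction of the median over genes, the closeness of Cd80 was 0.41 ± 0.35 with and 0.52 ± 0.15 without CpG-STAT3ASO (SD, n = 4 each; exact permutation p = 0.571). That of Cd86 was 0.08 ± 0.20 with and 0.01 ± 0.10 without it (exact permutation p = 0.686). Adjusted over these 2 comparisons both were 0.686. Without the subtraction Cd86 was closer by 0.44 (exact permutation p = 0.0286) and Cd80 by 0.27 (0.0571). With Cd28 counted around the ligand molecules instead, Cd86 was closer by 0.19 (exact permutation p = 0.0286).

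Fitted over 93 genes without the subtraction, closeness to Cd28 was called for 21.5% of genes, all higher with CpG-STAT3ASO. Icos was closer by 1.51 ± 0.36, Tnfrsf9 by 1.45 ± 0.37 and Cd86 by 0.44 ± 0.12 (SE, limma adjusted p = 0.0477 each). Cd40 and Cd80 were not called, at 0.36 ± 0.15 and 0.27 ± 0.14 (0.114 and 0.182). For anti-PD1 averaged over CpG-STAT3ASO 1.08% of genes were called, none of them among the 6.

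The nearest genes differed between the ligand genes with Cd40 and the T cell receptors. Over 8 sections and 93 genes, the closest genes to Cd80 were Il12b, Ccl22 and Ccr7, with mean log2 density ratios of 3.07, 2.96 and 2.88. Il12b encodes a subunit of interleukin 12, Ccl22 a chemokine of mature dendritic cells and Ccr7 the receptor that guides them to lymph nodes. The same 3 genes led for Cd40 (Ccl22 at 2.40, Il12b at 2.35 and Ccr7 at 2.11). For Cd86 they were Il12b at 1.86, Ccl22 at 1.48 and the macrophage and microglial growth factor receptor gene Csf1r at 1.46. Il12b exceeded the FP level in 4 of 8 sections only.

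Cd28 lay closest to Ctla4, Cd3d and Pdcd1, at 2.79, 2.78 and 2.70, genes of the inhibitory receptor CTLA-4, the T cell receptor complex and PD-1. Icos lay closest to Foxp3, Ctla4 and Il2ra, at 2.73, 2.71 and 2.50, and Tnfrsf9 to Foxp3, Il2ra and Ctla4, at 3.21, 3.05 and 2.87. FP codes had a ratio of 0.53 around Icos, near its median over genes of 0.64. Around the other costimulatory genes FP codes had 0.16 to 0.33. Foxp3 is the transcription factor of regulatory T cells, and Il2ra encodes the high-affinity interleukin 2 receptor chain they carry. Tnfrsf9 also had ratios of 2.46 to Ccr7 and 2.43 to Ccl22, against 1.13 to Cd8a, a set named after its values were seen. This contrast lay mostly in the sections with CpG-STAT3ASO, with means of 3.43 and 3.42 against 0.99. Without it the means were 1.48 and 1.44 against 1.27. These ratios are descriptions over sections that share their bins and molecules.

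**Figure D5:**
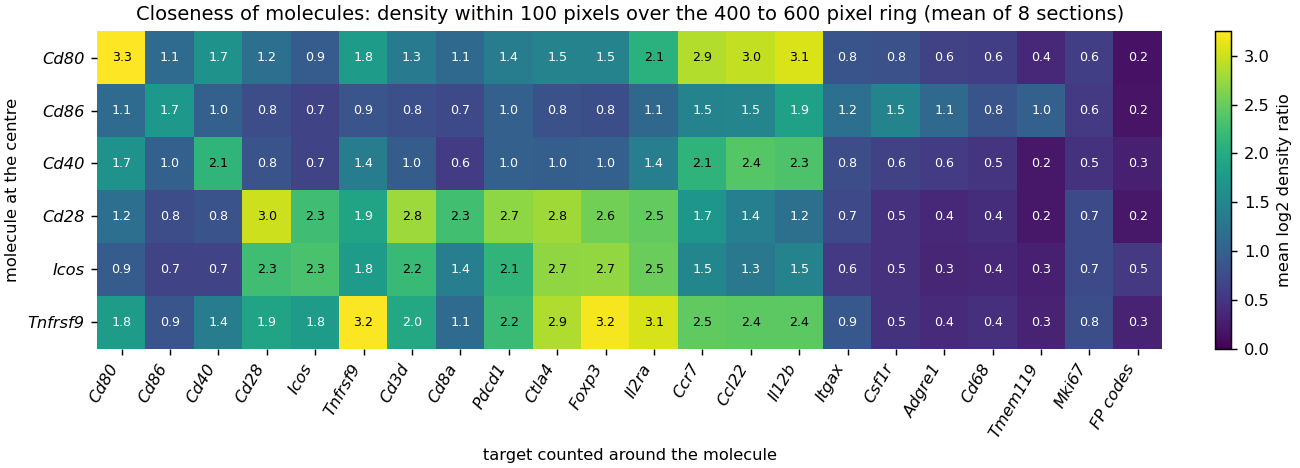
Mean log2 density ratio over 8 sections (density within 100 pixels over the 400 to 600 pixel ring) of 22 targets around molecules of the 6 genes. Cd80 and Cd40 have their highest values with Ccr7, Ccl22 and Il12b or their own molecules, and Cd28, Icos and Tnfrsf9 have theirs with T cell genes or their own molecules; FP codes lie between 0.16 and 0.53.

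Across the 8 sections, Cd80 had its highest Pearson correlations of log2(CPM + 1) with Cd86 (0.99), Csf1r (0.98) and Havcr2 (0.98), and Cd86 with Cd80, Csf1r and Adgre1 (0.98). Cd28 followed Klrd1 (0.92), Cd3d (0.90) and Klrc1 (0.84). Tnfrsf9 followed Il1b (0.96), Klrb1c (0.87) and Stat3 (0.83). Cd40 followed Ctla4 (0.89) and Gzma (0.79), and Icos followed Il6 (0.92), Cd4 (0.86) and Ccl22 (0.86). The points share their treatment, and sections with CpG-STAT3ASO lie apart for several of these genes, so the values only describe which genes ran alongside.

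Of the wider costimulatory and checkpoint pathway, 16 further genes were on the panel. With CpG-STAT3ASO 7 of them were called higher and 0 lower over whole sections, with a median log2 difference of 0.84 against 0.63 over all genes. This is close to the share over all 100 genes, 35% higher and 8% lower. Among the called genes were the checkpoint receptor genes Havcr2 (1.57, limma adjusted p = 0.00189) and Lag3 (1.60, 0.00303), the exhaustion factor Tox (2.17, 0.00505; above the FP level in 6 of 8 sections), the cytokine gene Tnf (1.69, 0.00898) and the interleukin 12 genes Il12a (1.93, 0.0206) and Il12b (2.75, 0.00189). The seventh was Icosl, which encodes the ligand of ICOS and did not exceed the FP level in any of 8 sections, with 10 to 36 molecules. Ctla4, which competes with CD28 for both ligands, differed by 0.76 (0.285), and Cd274 and Pdcd1lg2, the genes of the PD-1 ligands, by 0.34 and -0.47, none of them called. None of the 16 was called in low bins or of 14 in intermediate bins, nor for anti-PD1.

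By place, 4 of 15 pathway genes were called higher and 4 lower in dense than in low bins, close to the 29.2% higher and 27.1% lower over all genes. The higher ones were Cd274 (1.14, limma adjusted p = 0.0126), Pdcd1lg2 (1.36, 0.00791), Ifng (2.98, 0.00264) and Il2ra (1.49, 0.0239), in the direction of Tnfrsf9. The lower ones included Lag3 (-3.05, 0.000909), Tox (-5.38, 0.000387) and Il12a (-4.17, 0.000415). At the margin against distant tissue 7 of 15 were higher and 2 lower, close to the 51.6% and 15.1% over all genes, with Pdcd1 at 2.41 (0.00137), Il2ra at 2.64 (0.000988) and Ctla4 at 1.28 (0.0187).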

How the data were processed

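Each deposited file lists the called molecules of 1 section with x, y and z position and target name. Per the labels the assay is single-molecule fluorescence in situ hybridization of a 100-gene panel, and Seurat 4.2.0 appears, with no role, in the submitters' processing notes. How spots were called and filtered, and the size of a pixel, is not stated there. The positions deposited by the authors are whole pixels (no expression unit), and levels were computed from them here. Molecules were tallied per section and per bin of 360 pixels, scaled to CPM and tested as log2(CPM + 1) with limma 3.58.1 (R 4.3.3) on genes averaging at least 10 molecules, with group means and Benjamini-Hochberg adjustment over all genes tested. Dense, intermediate and low bins had 100 or more, 10 to 99 and under 10 molecules of Mki67 plus Birc5, which were left out of class and zone totals. Closeness added 0.5 to each count. Ratios and closeness were compared by exact permutation of 4 against 4 sections (scipy 1.17.1, Python 3.11.15). Scripts were tested on simulated data. Members, pathway and marker lists were chosen with earlier results of these data known. Besides the 6 genes, the text names the 3 genes closest to each by position and by correlation, except 1 that is not reported here, and the pathway list. Alternatives were other scalings, pseudocounts, filters, bin sizes, class limits, radii, voom, a replicate block and leaving out each section.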

Additional observations from a re-analysis of the deposited data

Results flagged for a closer look

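Cd28 stood at 368 CPM in the first anti-PD1 section, against 147 to 176 CPM in the other 3 sections without CpG-STAT3ASO. Its gap to the nearest of them was above Dixon's critical value for 4 samples. Such gaps were tested in 24 groups of sections, and chance gives about 1 in 20.

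Tnfrsf9 differed between intermediate and low-proliferation bins by less with CpG-STAT3ASO than without it, with a difference of -1.48 between the log2 differences (limma interaction term, adjusted p = 0.0122). All 4 sections with CpG-STAT3ASO had a smaller step than the 4 sections without it.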

How the results depend on the processing

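Of the alternatives, the scale moved most results. Per tissue bin, 1 of the 6 genes was called for CpG-STAT3ASO in place of 3, with Cd40, Cd28 and Icos at -1.22, -0.61 and -0.61, and 0 were called in CpG-STAT3ASO or the combination against PBS and in the combination against anti-PD1. The anti-PD1 average was 0.13 for Cd40 and 0.054 for Tnfrsf9 per bin. Median-of-ratios scaling, alone or with the replicate block, called 1 gene in each of these 3 comparisons, with Cd40 at -0.49 for CpG-STAT3ASO. With limma without trend 1 was called in both combination comparisons, and with a pseudocount of 10 0 in combination against anti-PD1. In low bins 1 gene was called per bin, and median-of-ratios scaling gave Cd86 -0.038, Cd40 -0.26, Icos -0.046 and Tnfrsf9 -0.28, and bins of 180 pixels gave Tnfrsf9 -0.14. In intermediate bins 1 was called with 180 pixels (Cd80) and 2 with limits of 20 and 200 (Cd80 and Cd86). Per bin all 6 were called in dense against low bins, with Cd80, Cd86 and Icos at 1.72, 1.55 and 2.51. For the CpG-STAT3ASO difference of intermediate against low bins, 0 were called with 720 pixels or limits of 5 and 50 and 2 with limits of 20 and 200 (Tnfrsf9 and Cd80, at 1.05), where Cd28 was 0.23. Icos there was -0.044 per bin, -0.012 with 720 pixels and -0.15 with limits of 5 and 50. Icos in intermediate against low bins was -0.074 with limits of 20 and 200. At the margin Icos was 0.39 per bin and 0.0086 with limits of 5 and 50, and Cd80 was -0.056 with limits of 20 and 200. Closeness to Cd28 without subtraction was 0.27 for Cd80 and 0.44 for Cd86, and that of Cd86 was 0.19 with Cd28 counted around it (exact permutation p = 0.0286). The Cd80 to Cd86 difference was 0.48 in low and 0.44 in intermediate bins, that of Cd40 to Cd86 -0.23 and -1.04, Tnfrsf9 to Cd28 -0.40 in low bins and Icos to Cd28 0.035 in intermediate bins. The cause of these changes was not tested.

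With each section left out in turn, 0 to 2 of the 6 genes were called in each of CpG-STAT3ASO against PBS, combination against PBS and combination against anti-PD1, 1 to 3 in dense against low bins and at the margin, and 0 to 1 for the CpG-STAT3ASO difference. The anti-PD1 average ran from -0.16 to 0.27 for Cd80, -0.10 to 0.18 for Cd86, -0.31 to 0.038 for Cd40, -0.064 to 0.46 for Icos and -0.51 to 0.084 for Tnfrsf9. Tnfrsf9 in low bins ran from -0.069 to 0.40. Dense against low bins gave -0.23 to 0.60 for Cd28 and -0.56 to 0.0094 for Icos. The CpG-STAT3ASO difference gave -0.40 to 0.20 for Cd28 and -0.028 to 0.21 for Icos. Closeness gave -0.23 to 0.011 for Cd80 and -0.034 to 0.12 for Cd86. The Cd80 to Cd86 ratio gave 0.42 to 0.59. Its exact permutation p was 0.0571 each time a section without CpG-STAT3ASO was left out. Icos to Cd28 gave -0.22 to 0.18.

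In 3 of 6 pairs of treatments the deviations of equal section numbers correlated above 0.1 (r of -0.53 to 0.59). The pairs with anti-PD1 had r of -0.53, -0.31 and -0.32, and the others had 0.25, 0.31 and 0.59. These values do not tell whether section numbers pair the sections. The replicate block kept 3 of the 6 genes called for CpG-STAT3ASO, with 41 genes called in place of 43, and changed no count of the 6 genes in the other whole-section comparisons. Counts over all genes moved by over 1.5 times as follows. CpG-STAT3ASO against PBS called 25 genes, 12 per bin, 13 with median-of-ratios scaling and 5, 6 and 10 without the second PBS, first or second CpG-STAT3ASO section. Combination against PBS called 18, 4 per bin, 11 with median-of-ratios scaling, and 6, 11 and 31 without the second PBS, first or second combination section. Combination against anti-PD1 called 28, 14 per bin, 13 with median-of-ratios scaling (16 with the block) and as few as 9 without the second anti-PD1 section. Low bins called 9, 16 per bin, 3 with median-of-ratios scaling and 3 to 20 with a section left out, and intermediate bins 4, 21 with 180 pixels, 27 with limits of 20 and 200 and 2 to 10 with a section left out. Dense against low bins called 54, 91 per bin and 35 without the second anti-PD1 section, the CpG-STAT3ASO difference 24, 14 with 720 pixels or limits of 5 and 50, and 1 without the first CpG-STAT3ASO section, and the margin 62 and 37 without the first PBS section. Depth limits Cd28, with 366 molecules in the sparsest section.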

Other observations

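The sections with CpG-STAT3ASO held 22 and 78 dense bins with the combination and 23 and 33 with CpG-STAT3ASO alone. In these few bins Cd80 stood at 3233, 992, 2169 and 1860 CPM, against 1038, 493, 755 and 687 CPM in the low bins of the same sections. Cd80 was higher in dense than in low bins in 4 of 4 sections with CpG-STAT3ASO and lower in 4 of 4 without it, a contrast that was not tested. Cd40, Cd28, Icos and Tnfrsf9 were also higher in dense bins in 4 of 4 sections with CpG-STAT3ASO. Cd86 was also lower in 4 of 4 without it. Such patterns were not counted over all genes. Tnfrsf9 stood at 616 and 614 CPM in the dense bins of the combination sections, on 16 and 117 molecules. In those of the CpG-STAT3ASO sections it stood at 2399 and 2315 CPM, on 73 and 183 molecules. This contrast was not tested. Cd28 rested on 10 to 92 molecules a section in these dense bins.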
